A study of Mus musculus with 12 samples.

Results

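The 9 genes described here are the core of the Hedgehog pathway: the ligands Ihh and Shh, the receptors Ptch1 and Smo, the ligand-trapping antagonist Hhip, the cytoplasmic inhibitor Sufu, and the transcription factors Gli1, Gli2 and Gli3. They were chosen by name for their place in the pathway, and all 9 are among the 26264 genes counted. Their RNA was measured in endometrial epithelial organoids of the mouse, cultures grown in a matrix from sheets of uterine epithelium. The 12 libraries comprise 4 groups with 3 replicates each: Esr1 KO with estrogen, Esr1 KO with no estrogen, wild type (WT) with estrogen and WT with no estrogen. Esr1 encodes estrogen receptor alpha. The organoids were used at an early passage, and the labels give neither the dose nor the duration of estrogen, nor the age of the donor mice of these lines, nor the way in which Esr1 was deleted. According to the submitters, organoids of neither genotype responded to the hormone.

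Secreted Hedgehog ligand binds the receptor PTCH1 and so lifts the block that PTCH1 places on SMO. Active SMO gathers in the primary cilium, where SUFU holds the GLI proteins, and its signal lets GLI2 act as an activator in place of the repressor that is cut from GLI3. GLI1, PTCH1 and HHIP are made in response to the signal, which makes their RNAs the usual readouts of an active pathway. In the uterus, progesterone acting through its receptor PGR raises Ihh in the epithelium, and the ligand acts mainly on PTCH1 in the neighbouring stroma, where NR2F2 is induced.

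Esr1 RNA itself was low in every KO library, at 19.7 ± 0.510 CPM (counts per 1e+06 counted reads, TMM-scaled; mean ± SD, n = 3 here and below) in KO with estrogen, 16.4 ± 0.402 in KO without, 318.1 ± 33.5 in WT with estrogen and 307.7 ± 50.2 in WT without. Library totals ran from 75654191 to 108665407 counted reads. The 8 epithelial markers summed to 3756 to 4888 CPM in the 6 KO libraries and to 4654 to 5671 CPM in the 6 WT libraries. KO libraries also held RNA of other epithelial types: 8 basal and stratified markers (Krt5, Krt14, Trp63 and others) summed to 5159 to 12968 CPM in KO, against 20.0 to 25.3 CPM in WT, and 10 markers of multiciliated cells (Foxj1 and others) to 720.5 to 1248 CPM in KO, against 10.0 to 19.0 CPM in WT. Krt14 was at 0 reads in WT with estrogen, and Gmnc, a multiciliated marker, was at 0 reads in both WT groups. Markers of stromal fibroblasts were low throughout, at a sum of 6.71 to 11.1 CPM over 12 genes in KO and of 10.7 to 30.8 CPM in WT, and Lum was at 0 reads in all KO libraries. Within that list Vim was higher in KO in both treatments (5.48 ± 0.272 CPM with estrogen in KO, against 0.308 ± 0.0585 in WT) and Col6a3 lower (0.0539 ± 0.0166 CPM in KO, against 9.44 ± 3.72 in WT). Of 8 smooth muscle markers 2 were higher (Myh11 and Lmod1) and 1 lower (Tagln). Of 6 immune markers 3 were lower in KO in both treatments (Ptprc, Cd68 and Csf1r), and the list summed to 100.4 to 187 CPM in KO and to 255 to 474 CPM in WT. Of 5 endothelial markers, Pecam1 was higher and Cdh5 lower, at sums of 0.654 to 1.05 CPM in KO and 0.728 to 2.86 CPM in WT. Over all tested genes, 34.1% were higher in KO in both treatments and 30.8% lower. Ptprc, Col6a3 and Cdh5 had enough reads for the genome-wide test through WT libraries alone and so could only be lower. Myh11, Lmod1 and Pecam1 had enough through KO libraries alone and so could only be higher. The part of these differences in make-up in any result below was not tested. In bulk RNA, fewer cells of a type and less RNA per cell cannot be told apart.

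Both genotypes carried RNA for the signal-receiving side of the pathway, SMO, PTCH1 and SUFU, and next to none for Ihh, Shh or the readout genes Gli1 and Hhip. The KO libraries carried Gli3 and Gli2, which were at or near 0 reads in WT. KO also had more Smo, by 1.74-fold with estrogen and 2.04-fold without, and slightly more Ptch1. Of the 9 genes, 5 had enough reads for the genome-wide test (Ptch1, Smo, Sufu, Gli2 and Gli3), and Gli2 and Gli3 did so only through their KO libraries. The 4 others, Ihh, Shh, Gli1 and Hhip, had too few. Gli2 and Gli3 could therefore only be counted as higher, and they are left out of the counts that follow. In edgeR's quasi-likelihood test with p-values adjusted over 16465 genes, 2 of the other 3 (Ptch1 and Smo) were higher in KO with estrogen and 0 lower, where 36.7% of all tested genes were higher and 34.1% lower (70.8% in either direction). Without estrogen the same 2 were higher and 1 (Sufu) lower, where 37.7% of all tested genes were higher and 34.0% lower (71.7% in either direction). Both treatments called 34.1% of all tested genes higher and 30.8% lower (64.9% in either direction). Most genes thus differed between the genotypes, and nothing is read from a count among 3 genes.

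The promoters of the 4 genes with higher levels in all KO libraries are shown, and they can be searched for the elements that a GLI factor or the deleted receptor would bind. Each is the 250 bases before the annotated start in RefSeq, build GRCm38.p6, written along the gene's strand: Gli3 at chr13:15463473-15463722 on the plus strand, Gli2 at chr1:119053620-119053869 on the minus strand, Smo at chr6:29735247-29735496 on the plus strand and Ptch1 at chr13:63565736-63565985 on the minus strand. Capitals mark a GC box (GGGCGG on either strand), the element bound by SP factors.
Gli3: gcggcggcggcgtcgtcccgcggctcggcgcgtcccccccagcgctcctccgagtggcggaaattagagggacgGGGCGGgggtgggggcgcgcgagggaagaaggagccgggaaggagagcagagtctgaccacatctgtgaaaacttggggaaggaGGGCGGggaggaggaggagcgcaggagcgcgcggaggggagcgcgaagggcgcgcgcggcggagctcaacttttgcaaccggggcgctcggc
Gli2: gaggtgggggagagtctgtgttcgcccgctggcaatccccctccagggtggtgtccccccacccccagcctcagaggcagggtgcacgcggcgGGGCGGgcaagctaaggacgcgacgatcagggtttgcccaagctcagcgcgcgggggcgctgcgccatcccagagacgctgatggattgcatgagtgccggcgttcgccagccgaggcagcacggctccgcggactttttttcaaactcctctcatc
Smo: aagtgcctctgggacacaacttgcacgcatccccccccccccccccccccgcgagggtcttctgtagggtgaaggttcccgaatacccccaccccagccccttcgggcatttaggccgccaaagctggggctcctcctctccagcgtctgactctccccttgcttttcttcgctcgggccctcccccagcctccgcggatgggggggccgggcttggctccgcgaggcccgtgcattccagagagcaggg
Ptch1: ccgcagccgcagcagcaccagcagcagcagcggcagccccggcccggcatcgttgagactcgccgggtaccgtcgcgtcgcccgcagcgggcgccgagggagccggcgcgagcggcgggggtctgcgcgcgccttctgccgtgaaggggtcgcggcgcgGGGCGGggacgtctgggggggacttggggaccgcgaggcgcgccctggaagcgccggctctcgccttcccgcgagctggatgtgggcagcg
A promoter of this kind was at hand for 7 of the 9 genes. The GLI site TGGGTGGTC, searched on both strands, was in 0 of the 7 and in 0.225% of all 32851 promoters of the same length. The palindromic estrogen response element (GGTCA and TGACC, 3 bases apart) was in 0 of the 7 and in 0.0639% of all promoters. A GC box was in 6 of the 7, with Smo the exception, and in 32.7% of all promoters. These are matches of letters in short windows, and no binding was measured.

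Ihh and Shh had hardly any reads in either genotype. Ihh, the ligand of the uterine epithelium, had 8, 8 and 6 reads in KO with estrogen and 2, 0 and 8 reads in KO without, against 6, 8 and 6 reads in WT with estrogen and 0, 10 and 6 reads in WT without. The groups overlapped, and no library exceeded 10 reads. The KO to WT ratio of summed Ihh reads, scaled by depth, was 0.889 with estrogen (exact 95% counting interval 0.463 to 1.72) and 0.635 without (0.258 to 1.49), so a difference of that size was not detectable at this depth. Mates of a read pair were counted apart, and all 10 non-zero Ihh counts were even, so these intervals are narrower than the number of fragments would give. Shh, the ligand of many embryonic tissues, had a single read in 12 libraries, in WT with estrogen. Of its 2847 exon bases, 807 are shared with 9530036O11Rik and Gm26894 in the annotation of build GRCm38, and reads in such overlaps were not counted. Dhh, the ligand best known from the testis and from nerve sheaths, is not among the 9 genes and had 146 to 179 reads in each group, at 0.457 ± 0.0933 CPM in KO with estrogen and 0.565 ± 0.149 CPM in KO without, against 0.644 ± 0.478 and 0.596 ± 0.257 CPM in WT with and without estrogen. Dhh did not pass the test in either treatment (edgeR adjusted p = 0.376 with and 0.896 without estrogen).

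Hhip, a membrane protein that traps the ligands and is induced by the signal, had 0, 6 and 2 reads in KO with estrogen and 0 reads in every library of the other groups. Set against a floor of 3 reads over the WT group, the KO to WT ratio with estrogen was 2.15, which leaves out the counting error of the KO reads. Without the filter on low counts Hhip did not pass (edgeR adjusted p = 0.156). These few reads come from 2 KO libraries. Both non-zero counts were even and mates of a read pair were counted apart, so fewer fragments than reads stand behind the ratio.

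Smo, the transducer that PTCH1 holds in check, was the most abundant of the 9 genes per length of exon, and it was higher in KO. It stood at 69.5, 54.9 and 63.6 CPM in KO with estrogen, against 33.5, 35.9 and 38.5 CPM in WT with estrogen. Without estrogen it stood at 70.8, 58.3 and 61.5 CPM in KO, against 30.1, 31.0 and 32.3 CPM in WT. The lowest KO library was above the highest WT library, a property shared by KO and WT libraries, in either direction, in 65.0% of all tested genes. KO exceeded WT by a log2 fold change of 0.80 ± 0.10 (SE) with estrogen (edgeR adjusted p = 2.62e-05) and of 1.03 ± 0.10 without (edgeR adjusted p = 3.49e-06). It passed in all 19 alternative settings that were run, which gave 0.72 to 0.98 with and 0.94 to 1.26 without estrogen.

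Ptch1, the receptor that binds the ligands and a target of the pathway, differed by far less. It stood at 42.4, 46.2 and 43.9 CPM in KO with estrogen, against 38.0, 39.5 and 34.0 CPM in WT with estrogen. Without estrogen it stood at 46.8, 49.1 and 44.9 CPM in KO, against 41.0, 37.0 and 41.4 CPM in WT. All 6 KO libraries were above all 6 WT libraries, with the lowest KO library at 42.4 CPM and the highest WT library at 41.4 CPM. KO and WT libraries were likewise apart, in either direction, in 65.0% of all tested genes, and nothing is read from it. Ptch1 was 1.19-fold higher with estrogen (log2 fold change 0.25 ± 0.07 SE; edgeR adjusted p = 0.0113) and 1.18-fold higher without (0.24 ± 0.07 SE; edgeR adjusted p = 0.0146). The call was lost with estrogen when WT with estrogen replicate 3 was left out (log2 fold change 0.19; edgeR adjusted p = 0.0524), and without estrogen when KO replicate 2 (0.20; 0.0546) or WT replicate 2 (0.19; 0.0637) was left out. Under scaling by library size alone, the log2 fold change of Ptch1 was 0.44 with and 0.46 without estrogen, and both passed.

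**Figure D1:**
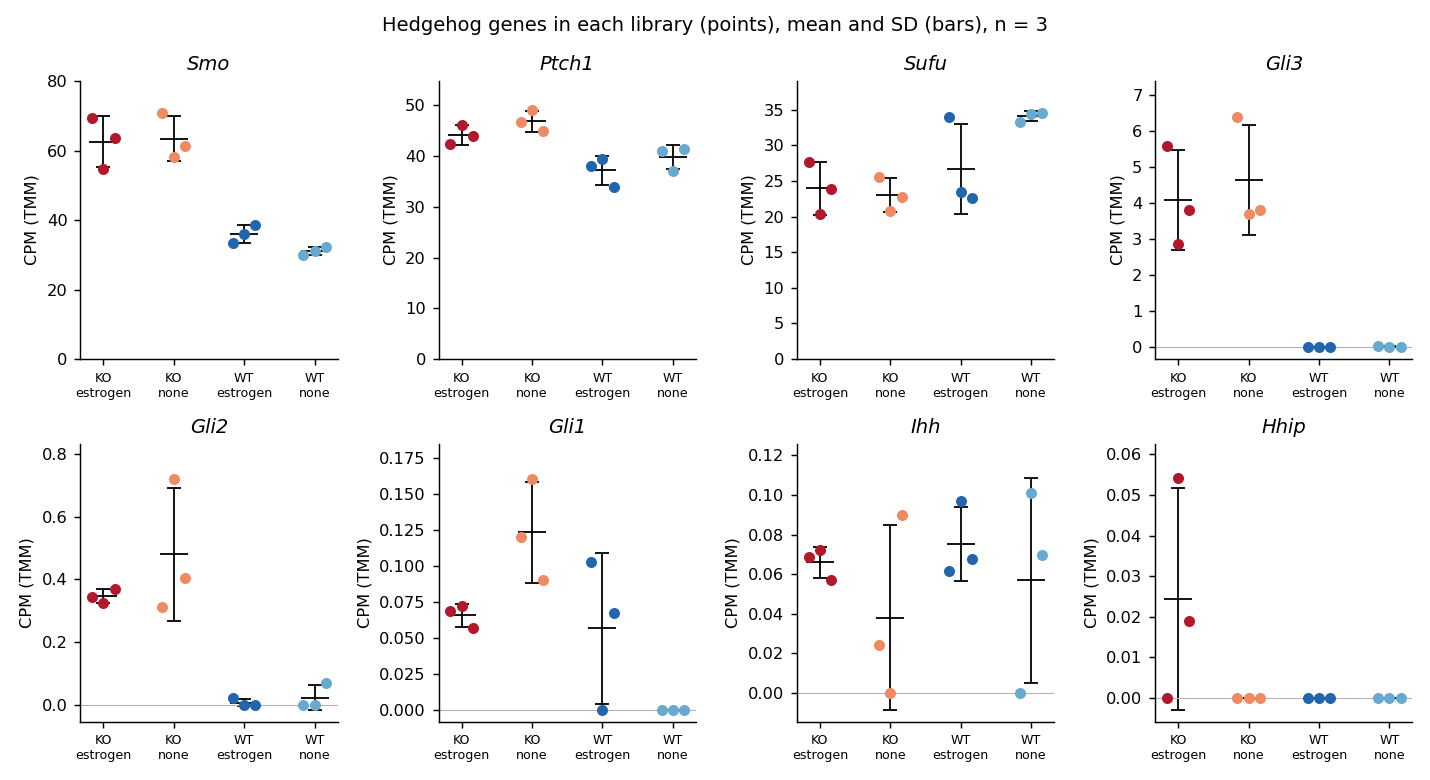
Level of 8 of the 9 genes in each library, in TMM-scaled counts per 1e+06 counted reads (CPM; linear axes that start at 0 or, where a bar reaches below it, lower), with points for libraries and bars for mean ± SD of 3. The KO points of Smo, Ptch1, Gli3 and Gli2 lie above all WT points, while those of Sufu, Gli1, Ihh and Hhip overlap with WT. KO and WT libraries did not overlap, in either direction, in 65.0% of all tested genes. Shh is left out because it had a single read.

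Sufu, which binds the GLI proteins and restrains them, went the other way in a single comparison. Without estrogen it stood at 25.6, 20.8 and 22.8 CPM in KO, against 33.3, 34.4 and 34.6 CPM in WT, with no overlap. It fell by 0.56 ± 0.16 on the log2 scale (SE; edgeR adjusted p = 0.00776). With estrogen it stood at 27.7, 20.3 and 23.9 CPM in KO, against 34.0, 23.5 and 22.5 CPM in WT, and the groups overlapped (log2 fold change -0.16 ± 0.16 SE; edgeR adjusted p = 0.392). WT with estrogen replicate 1 was apart from the other two and close to WT without estrogen. The difference between the treatments was itself tested as an interaction and did not pass (log2 difference 0.41 ± 0.22 SE; unadjusted p = 0.0964, edgeR adjusted p = 0.974). Under scaling by library size alone the call without estrogen was lost (log2 fold change -0.34; edgeR adjusted p = 0.0801). With estrogen the uncalled value then turned to 0.0266, and to 0.0558 when WT with estrogen replicate 1 was left out.

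**Figure D2:**
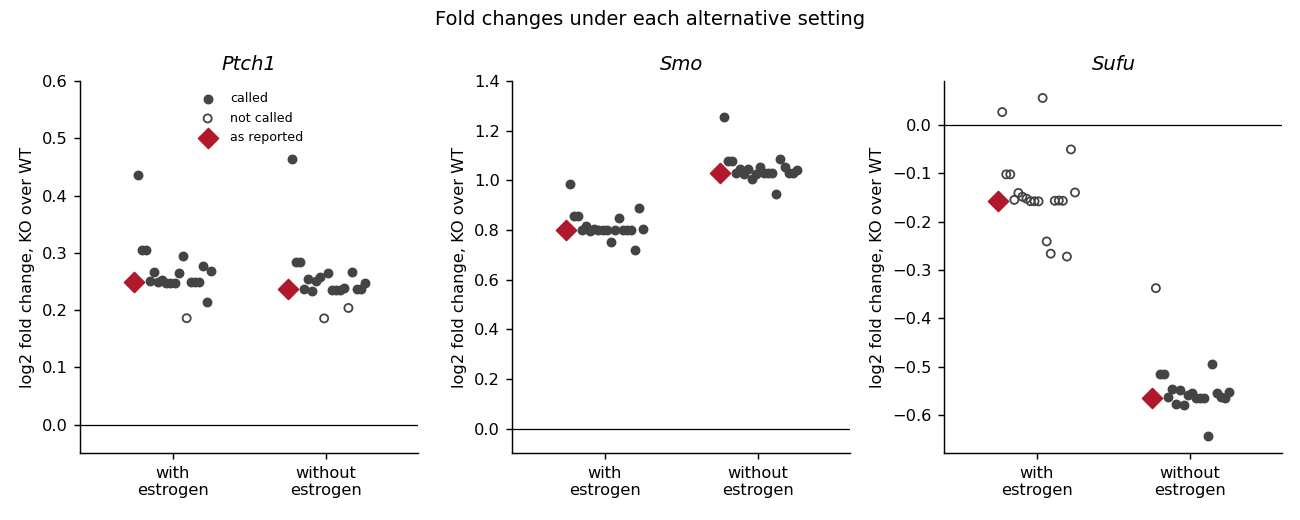
Log2 fold change of KO over WT for Ptch1, Smo and Sufu as reported (diamond) and under each alternative setting (circles; filled where called, open where not), with estrogen and without. Smo stays called at 0.72 to 1.26 in every setting run, Ptch1 stays positive but loses its call in 3, and Sufu with estrogen crosses 0.

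Gli3, known chiefly as the source of the pathway's repressor, had the largest ratio of KO to WT among the 9 genes. It had 651, 319 and 400 reads in KO with estrogen and 0 reads in each WT library with estrogen. Without estrogen it had 532, 324 and 338 reads in KO, against 4, 0 and 2 reads in WT. Every KO library held at least 319 reads and no WT library more than 4. In CPM, Gli3 was at 4.09 ± 1.38 in KO with estrogen and at 4.63 ± 1.53 in KO without. Set against a floor of 3 reads over the WT group, the KO to WT ratio of Gli3 with estrogen was 369, which leaves out the counting error of the KO reads. Without estrogen the ratio was 202 (exact 95% counting interval 92.6 to 552). No p-value is given, since Gli3 passed the filter on low counts through its KO libraries alone.

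Gli2, the main activator of the pathway, was also confined to KO above a few reads, and was lower than Gli3 per length of exon. It had 40, 36 and 39 reads in KO with estrogen, against 2, 0 and 0 reads in WT with estrogen. Without estrogen it had 26, 63 and 36 reads in KO, against 0, 0 and 6 reads in WT. The lowest KO library held 26 reads and the highest WT library 6. The ratio of summed reads, scaled by depth, was 46.5 (exact 95% counting interval 12.6 to 388) with estrogen and 21.2 (9.46 to 58.8) without, given with no p-value for the same reason. The intervals cover counting error only, and mates of a read pair were counted apart. GLI2 and GLI3 are best known in the uterus from its stroma, and the part of the stromal and muscle markers given above was not tested.

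Gli1, an activator and the most direct target of the pathway, stayed near the floor in KO and WT. It had 8, 8 and 6 reads in KO with estrogen, against 10, 0 and 6 reads in WT with estrogen. Without estrogen it had 10, 14 and 8 reads in KO, against 0 reads in each WT library. With estrogen the groups overlapped, at a ratio of 1.11 (exact 95% counting interval 0.557 to 2.26). Without estrogen the KO to WT ratio against the floor was 10.8, which leaves out the counting error of the KO reads. Gli1 was called there when the filter on low counts was lifted. With 0 WT reads it could only come out higher, so no p-value is given. With the filter lifted, Gli1 did not pass in KO against WT with estrogen (edgeR adjusted p = 0.889). Nor did it pass for estrogen in WT (edgeR adjusted p = 0.825) or for the interaction, so no difference between the treatments is read from Gli1. Mates were counted apart, and all 8 non-zero Gli1 counts were even. Fewer fragments than reads thus stand behind the interval, the ratios and the tests of Gli1. Its exons share 327 bases with Arhgap9 and Gm47200 in the annotation of build GRCm38, and reads in such overlaps were not counted.

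**Figure D3:**
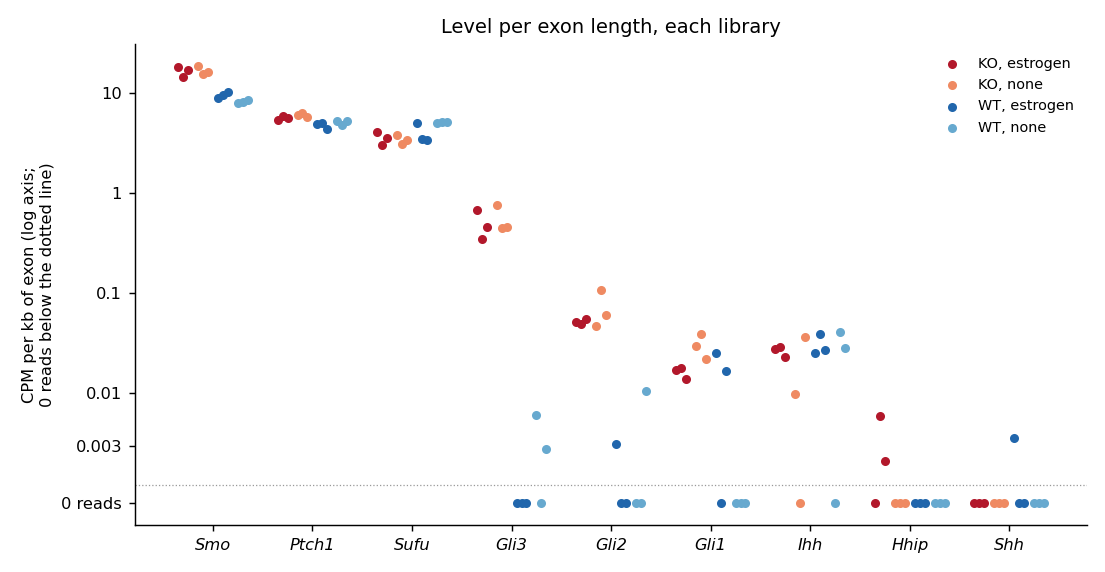
Level of all 9 genes per kilobase of exon in each library (TMM-scaled CPM per kb, log axis, with libraries at 0 reads set below the dotted line). Smo leads in all 4 groups at 8.24 to 16.8 CPM per kb on average, Ptch1 and Sufu follow, Gli3 is at 0.491 to 0.556 CPM per kb in KO, and the other genes are lower.

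Per kilobase of exon, which allows levels of different genes to be ranked, the order in KO was Smo, Ptch1, Sufu, Gli3 and Gli2. With estrogen their KO means were 16.6 ± 1.95, 5.66 ± 0.245, 3.58 ± 0.549, 0.491 ± 0.166 and 0.0522 ± 0.00345 CPM per kb. These 5 ranks did not overlap between neighbours in any KO library. In WT with estrogen, Smo was at 9.52 ± 0.662, Ptch1 at 4.76 ± 0.370 and Sufu at 3.99 ± 0.952 CPM per kb, and in WT without estrogen at 8.24 ± 0.287, 5.11 ± 0.311 and 5.09 ± 0.0998 CPM per kb. There Ptch1 and Sufu did not differ beyond their spread. Ihh averaged 0.0154 to 0.0305 CPM per kb over the 4 groups and Gli1 0 to 0.0304, and these genes could not be ranked against each other at such counts. Exon lengths are from the GENCODE annotation of build GRCm38, older than the build the reads were aligned to.

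Among the KO libraries, the levels of Smo, Gli3 and Sufu differed by replicate number in the same way in both treatments. Replicate 1 was the highest for each of the 3 genes, replicate 2 the lowest, and replicate 3 between them. For Gli3 this was 5.60, 2.88 and 3.80 CPM in replicates 1, 2 and 3 with estrogen and 6.40, 3.70 and 3.81 CPM without. The summed basal and stratified markers took the same order, at 12968, 5159 and 8969 CPM with estrogen and 12189, 6785 and 8846 CPM without. The summed multiciliated markers took the opposite order, at 720.5, 1018 and 754.9 CPM with estrogen and 855.9, 1248 and 944.5 CPM without. Ptch1, like the multiciliated sum, was highest in replicate 2 in both treatments. Its full order matched that sum with estrogen (42.4, 46.2 and 43.9 CPM in replicates 1, 2 and 3). Without estrogen it did not (46.8, 49.1 and 44.9 CPM). With 6 libraries, whether the markers bear on these genes was not tested.

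**Figure D4:**
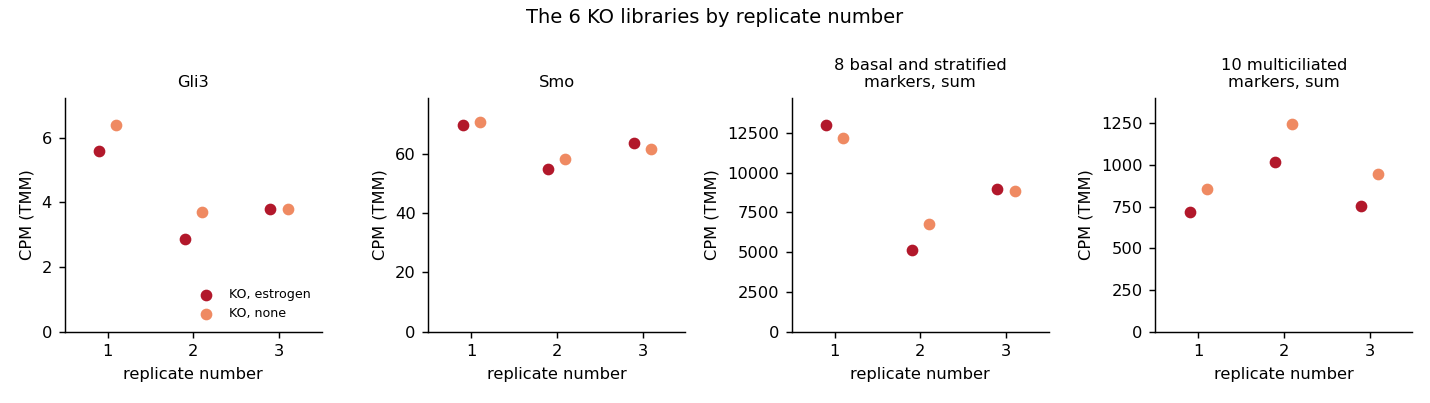
Gli3, Smo and the summed markers of basal and stratified epithelium and of multiciliated cells in the 6 KO libraries (TMM-scaled CPM, axes from 0), by replicate number as the labels give it. Gli3, Smo and the basal sum are highest in replicate 1 (basal sum 12968 CPM with and 12189 CPM without estrogen), and the multiciliated sum is highest in replicate 2.

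No effect of estrogen was detected on the 5 of the 9 genes that were tested. Of the 5 tested, edgeR called 0 in KO, 0 in WT and 0 for the interaction of genotype and estrogen, where 0% of all tested genes were called in each comparison. At an unadjusted p under 0.05 the number was 0 of 5 in KO, 2 of 5 in WT (Gli3 and Sufu) and 0 of 5 for the interaction, against 2.50%, 5.36% and 4.41% of all tested genes. The Gli3 value in WT compares 0 reads in each library with estrogen to 4, 0 and 2 reads without. Gli3 also entered the test through KO libraries alone, and nothing is read from these counts. DESeq2 called 0 of these 5 genes in the 3 comparisons. In WT, Smo had a log2 fold change with estrogen of 0.21 ± 0.10 (SE; unadjusted p = 0.0583, edgeR adjusted p = 0.937). In KO its log2 fold change with estrogen was -0.02 ± 0.10 (SE; edgeR adjusted p = 1). For Ptch1 the values were -0.09 ± 0.07 in KO and -0.10 ± 0.07 in WT (SE; edgeR adjusted p = 1 and 0.947). Without the filter, Ihh, Shh, Gli1 and Hhip did not pass in KO or in WT either (edgeR adjusted p = 0.825 for Gli1 in WT). Gli1 had 8, 8 and 6 reads in KO with estrogen and 10, 14 and 8 without. In WT it had 10, 0 and 6 reads with estrogen and 0 in each library without. Such counts leave an effect of estrogen on Gli1 undecided.

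The rest of the pathway was followed through lists of its other genes. Their counts include genes, such as Lrp2 and Areg, that passed the filter on low counts through KO libraries alone and so could only be higher. Others, such as Snai1, passed through WT libraries alone and so could only be lower. Of 16 genes of ligand release and reception, 13 were tested, 3 were higher in KO in both treatments (Gas1, Lrp2 and Scube3) and 7 lower, among them Boc, Disp1 and Gpc3, against 34.1% and 30.8% of all tested genes. The list's median log2 fold change was -0.64 with and -0.58 without estrogen, while that of all tested genes was 0.02 and 0.04. Gas1, a co-receptor that helps PTCH1 bind ligand, was at 4.32 ± 1.45 CPM in KO with estrogen and 4.29 ± 1.22 CPM in KO without, against 0.294 ± 0.0595 and 0.323 ± 0.102 CPM in WT (log2 fold changes of 3.88 with estrogen and 3.72 without, at edgeR adjusted p = 2.93e-06 and 3.48e-06). Boc, a co-receptor with the same role, went the other way at 9.68 ± 1.43 and 7.74 ± 0.392 CPM in KO with and without estrogen, against 20.1 ± 3.18 and 21.9 ± 0.800 CPM in WT (log2 fold changes of -1.05 with estrogen and -1.50 without, at edgeR adjusted p = 3.09e-05 and 1.98e-06). The third co-receptor, Cdon, did not pass in either treatment (edgeR adjusted p = 0.447 with and 0.369 without estrogen). Lrp2, an endocytic receptor that also takes up Hedgehog ligand, was at 6.87 ± 3.88 and 9.44 ± 4.54 CPM in KO, and had 14 reads in WT with estrogen and 2 reads in WT without. Gpc3, a glypican that competes with PTCH1 for ligand, was at 2.91 ± 1.25 and 2.53 ± 0.787 CPM in KO, against 107 ± 62.1 and 173 ± 83.6 CPM in WT (log2 fold changes of -5.20 with estrogen and -6.10 without, at edgeR adjusted p = 1.41e-05 and 5.34e-06). Among the WT libraries Gpc3 was at 92.0, 175 and 53.9 CPM with and 223, 76.7 and 220.3 CPM without estrogen in replicates 1, 2 and 3. The fibroblast marker Col6a3 was at 9.90, 12.9 and 5.51 CPM and at 26.9, 9.94 and 24.9 CPM in the same libraries, and its part was not tested.

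All 25 genes that carry the signal from SMO to the GLI proteins were tested, 12 were higher in KO in both treatments and 6 lower, against 34.1% and 30.8% of all tested genes, with a median log2 fold change of 0.13 with and 0.03 without estrogen. Kif7, a kinesin that places GLI proteins at the tip of the cilium, was at 2.08 ± 0.719 and 2.48 ± 0.742 CPM in KO with and without estrogen, against 0.205 ± 0.0729 and 0.138 ± 0.0538 CPM in WT (log2 fold changes of 3.33 with estrogen and 4.15 without, at edgeR adjusted p = 2.08e-05 and 5.09e-06). Evc, a ciliary partner of SMO, was at 5.97 ± 1.74 and 6.05 ± 1.28 CPM in KO, against 0.637 ± 0.232 and 0.538 ± 0.0600 CPM in WT (log2 fold changes of 3.22 with estrogen and 3.49 without, at edgeR adjusted p = 4.26e-06 and 2.41e-06). The most negative were Ulk3, a kinase of GLI proteins, and Smurf1, a ubiquitin ligase that acts on PTCH1. Ulk3 had log2 fold changes of -0.45 with estrogen and -0.72 without (edgeR adjusted p = 0.00162 and 5.4e-05), and Smurf1 of -0.42 with estrogen and -0.64 without (edgeR adjusted p = 0.00155 and 7.21e-05). Kif7 overlaps Ticrr and Evc overlaps Crmp1 in the annotation, and strand was not used in counting.

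Signalling of this pathway depends on transport within the primary cilium, and 19 of 21 genes for that transport were higher in KO in both treatments, with 0 lower, against 34.1% and 30.8% of all tested genes. Their median log2 fold change was 1.11 with and 1.21 without estrogen. Ift80, a subunit of the anterograde transport complex, was at 60.8 ± 10.4 and 70.6 ± 13.8 CPM in KO with and without estrogen, against 6.48 ± 1.21 and 6.98 ± 0.151 CPM in WT (log2 fold changes of 3.23 with estrogen and 3.34 without, at edgeR adjusted p = 6.43e-08 and 4.44e-08). Dync2li1, a light chain of the retrograde motor, had log2 fold changes of 2.29 with estrogen and 2.83 without (edgeR adjusted p = 2.41e-07 and 5.2e-08). The same genes build motile cilia, and beside them 10 of 10 multiciliated markers and 8 of 8 basal and stratified markers were higher in KO in both treatments. Several of these markers, such as Gmnc, Hydin and Krt14, passed the filter on low counts through KO libraries alone and so could only be higher. The part of the marked cell types in the ciliary result was not tested.

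Genes reported elsewhere as GLI targets went both ways. Of 20, 15 were tested, 7 were higher in KO in both treatments (Foxm1, Ccnd2, Bcl2, Sfrp1, Jag2, Rab34 and Bmp4) and 3 lower (Mycn, Snai1 and Wnt5a), against 34.1% and 30.8% of all tested genes, with a median log2 fold change of 0.77 with and 0.96 without estrogen. Ccnd2, a D-type cyclin, was at 134 ± 46.8 and 122 ± 51.6 CPM in KO with and without estrogen, against 3.85 ± 2.19 and 0.915 ± 0.506 CPM in WT (log2 fold changes of 5.12 with estrogen and 7.06 without, at edgeR adjusted p = 1.16e-05 and 2.19e-06). Sfrp1, a secreted Wnt antagonist, had log2 fold changes of 5.40 with estrogen and 5.97 without (edgeR adjusted p = 3.25e-08 and 1.82e-08). Mycn, a transcription factor of the Myc family, was at 8.79 ± 1.56 and 6.73 ± 0.491 CPM in KO, against 126 ± 21.8 and 121 ± 13.4 CPM in WT (log2 fold changes of -3.84 with estrogen and -4.17 without, at edgeR adjusted p = 1.17e-08 and 7.06e-09). Snai1, a repressor of epithelial genes, had 10 and 12 reads in KO, against 464 and 427 reads in WT. It passed the filter on low counts through its WT libraries alone and so could only be lower. No p-value is given for Snai1. Each of these genes has other known regulators. Foxf2, Foxl1, Nkx2-2 and Nkx6-1 were among those with too few reads to be tested.

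The uterine axis around Ihh, from its regulators to genes that act downstream in the stroma, had 10 of 11 genes tested, of which 5 were higher in KO in both treatments (Sox17, Nr2f2, Bmp2, Wnt4 and Areg) and 2 lower (Pgr and Arid1a), against 34.1% and 30.8% of all tested genes. The median log2 fold change was 0.56 with and 0.53 without estrogen. Pgr was at 28.4 ± 7.58 and 22.8 ± 4.36 CPM in KO with and without estrogen, against 122 ± 37.7 and 80.5 ± 28.0 CPM in WT (log2 fold changes of -2.11 with estrogen and -1.82 without, at edgeR adjusted p = 0.000166 and 0.000433). Arid1a, a chromatin remodeller, had log2 fold changes of -0.35 with estrogen and -0.37 without (edgeR adjusted p = 0.00431 and 0.00309), and both calls were lost under scaling by library size alone (-0.16 and -0.14; edgeR adjusted p = 0.129 and 0.184). Areg, an EGF-family ligand, was at 4.81 ± 2.45 and 5.00 ± 0.886 CPM in KO, against 0.139 ± 0.139 and 0.273 ± 0.336 CPM in WT (log2 fold changes of 5.07 with estrogen and 4.20 without). Its WT libraries held 29, 6 and 4 reads with and 6, 8 and 57 reads without estrogen. These were too few to pass the filter on low counts without the KO libraries, and no p-value is given for Areg. Bmp2, known for its part in the decidual reaction, had log2 fold changes of 4.36 with estrogen and 4.23 without (edgeR adjusted p = 0.000175 and 0.000199). Nr2f2, the stromal responder to IHH, was at 33.6 ± 1.21 and 33.0 ± 1.50 CPM in KO, against 14.3 ± 1.06 and 15.1 ± 0.719 CPM in WT, while Hand2, a stromal factor, had 12 reads in all and was not tested.

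**Figure D5:**
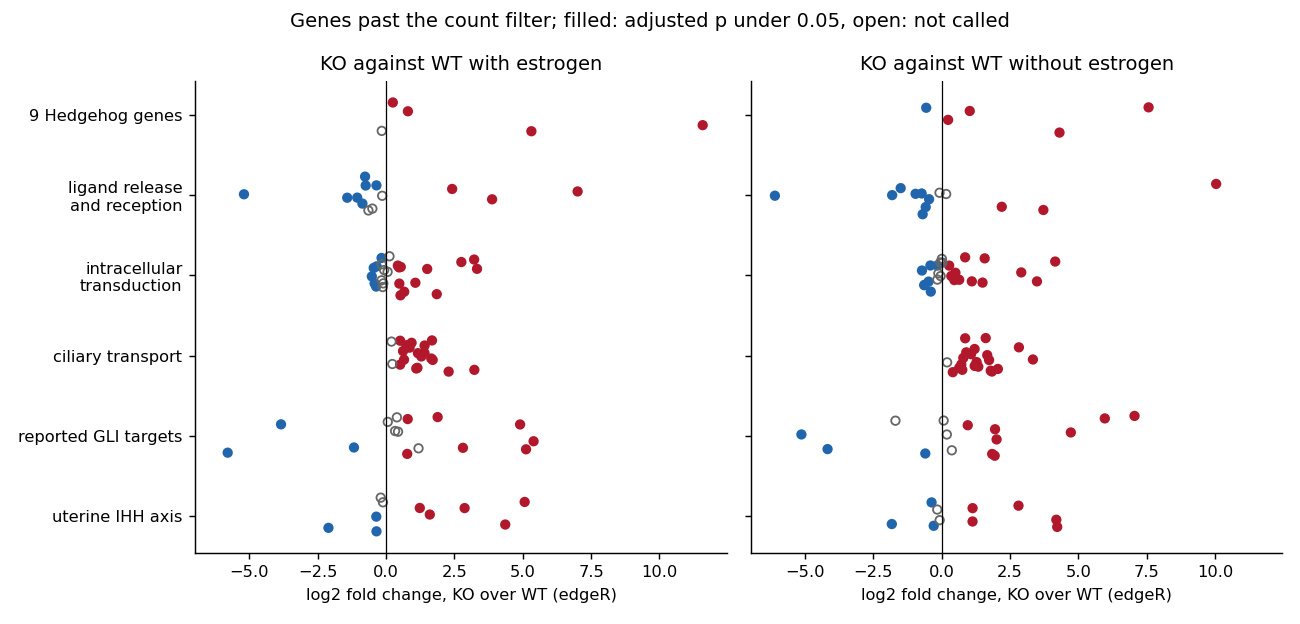
Log2 fold change of KO over WT (edgeR; above 0 is higher in KO) for the tested genes of the 9 Hedgehog genes and of the other pathway lists, with estrogen and without, filled where the adjusted p was under 0.05 and open otherwise. The transport genes lie on the positive side, with 19 of 21 higher in both treatments, while the other lists spread to both sides. Genes such as Gli2, Gli3, Lrp2, Areg and Snai1 passed the filter on low counts through a single genotype, which fixed their direction. Their filled points are not read as test results. Fitted values of genes with 0 reads in WT, such as Gli3 with estrogen, depend on the prior count and are not measured folds.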

How the data were processed

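Reads per gene were measured in 12 libraries, 4 groups of 3, with groups and replicate numbers taken from the titles. The deposited values are raw counts: per the file headers, the authors ran featureCounts 2.0.0 over RefSeq exons by gene symbol, each mate counted apart, strand ignored, and reads at several places or genes left out. The submitters' processing notes name STAR 2.7.10b with build GRCm39, FastQC 0.11.7, Trim Galore 0.6.6 and featureCounts 2.0.3. Per the labels' protocols, libraries were TruSeq mRNA read pairs.

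Counts were fitted with edgeR 4.0.16 (R 4.3.3; TMM, filterByExpr with a minimum count of 10 and total of 15, robust quasi-likelihood, 4 group means), with SEs from the fold change and F statistic. Of 26264 genes, 16465 were tested. Tests were two-sided, adjusted by Benjamini-Hochberg at 0.05. The script was tested on simulated data. Alternatives were other scalings, filters, libraries, DESeq2 1.42.0 and replicate blocks. The 9 genes and the lists were chosen with earlier results of these data known. From each list, up to 2 genes with the most positive and 2 with the most negative mean log2 fold change were named among those called in both treatments with KO and WT libraries apart; others named were chosen after their values were seen. No genes were named by likeness to Ihh, which did not pass the filter.

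The labels do not say whether replicates came from separate animals or cultures, so p-values measure only the spread between these libraries. Replicates differed beyond counting error (chi-square per degree of freedom 48.8 to 321). Deviations from group means of KO libraries with the same number, with and without estrogen, correlated across genes by 0.80, 0.71 and 0.60, and those of WT libraries by -0.31, -0.27 and -0.61, so the numbers pair the KO libraries only. WT libraries with other numbers correlated by up to 0.59, 0.59 and 0.71, and were not paired by that.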

Additional observations from a re-analysis of the deposited data

How the results depend on the processing

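Ptch1 and Smo had positive log2 fold changes of KO over WT in every alternative. Smo was called in all 19 in both treatments, and Ptch1 in 18 of 19 with and 17 of 19 without estrogen. Gli2 and Gli3 were higher wherever they were tested, but with next to no WT reads they could only be higher. With Gli2 and Gli3 included, the number of the 9 genes called was 3 to 4 with estrogen and 4 to 6 without. As reported it was 4 and 5, where 70.8% and 71.7% of all tested genes were called, and nothing is read from it. Gli2 was left out by a filter of 1 CPM in 3 libraries. Library-size scaling moved the median log2 fold change of all genes by 0.19 with and 0.23 without estrogen, and of the genes called in both treatments the part that was higher in KO was then 65.3% in place of 52.5% (63.1% in place of 51.8% with estrogen, 65.5% in place of 52.5% without). Under it Ptch1 had log2 fold changes of 0.44 with and 0.46 without estrogen, Sufu with estrogen reversed to 0.0266, and the interaction of Ptch1 to -0.0281. For estrogen in KO, estrogen in WT and the interaction, edgeR called 0 genes as reported and DESeq2 20, 63 and 25. A replicate block within genotype gave 0, 7 and 4, and an additive replicate block 0 for estrogen in either genotype and 11640 (with estrogen) and 11814 (without) for KO against WT, in place of 11655 and 11811; neither changed a call among the 9 genes. Leaving out each library gave 0 to 4 for estrogen in KO (4 without KO with no estrogen replicate 3), 0 to 54 in WT (54 without WT with estrogen replicate 1, 1 without WT with no estrogen replicate 3) and 0 to 6 for the interaction (6 without WT with estrogen replicate 1), and 0 in all others. The interaction was not run on only the groups compared, since it uses all 4. Of the 9 genes, values that turned sign on leaving out a library were never called: Sufu in KO against WT with estrogen (-0.27 to 0.0558), Smo (-0.10 to 0.0672), Gli3 (-0.47 to 0.12) and Sufu (-0.0611 to 0.16) for estrogen in KO, Gli2 for estrogen in WT (-4.18 to 2.72), and the interactions of Ptch1 (-0.0493 to 0.0618) and Gli2 (-3.19 to 3.71). Of 36 log2 fold changes of the other named pathway genes, 34 were called in all alternatives and 0 reversed. Among them, Lrp2, Areg and Snai1 passed the filter on low counts through a single genotype, which fixed their direction. The cause was not tested. At this depth, differences in Ihh, and in Gli1 with estrogen, within their counting intervals were not detectable.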
